A study of Homo sapiens with 11 samples.

Results

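The genes described are 5 members of the MS4A (membrane-spanning 4-domains subfamily A) cluster on human chromosome 11 that myeloid cells use: MS4A3, MS4A4A, MS4A6A, MS4A7 and MS4A14. They were picked by symbol from the 58037 genes of the count table, all 5 were found, and they were chosen from their lower levels under FHD-286. The values that chose them are therefore given below as a description, with no test. RNA was sequenced in 11 libraries of a pair of acute myeloid leukaemia lines. The groups were OCI-AML3-FLT3-ITD with 100 nM FHD-286 for 16 h (2 libraries), OCI-AML3-FLT3-ITD control (3 libraries), OCI-AML3 with 100 nM FHD-286 for 16 h (3 libraries) and OCI-AML3 control (3 libraries). OCI-AML3 is an established line with a mutation of the nucleolar protein gene NPM1. OCI-AML3-FLT3-ITD is, by its name, that line with the internal tandem duplication of the receptor tyrosine kinase FLT3; how it was made, and whether it is 1 clone, is not given in the sources used here. FHD-286 inhibits BRG1 (SMARCA4) and BRM (SMARCA2), the alternative motor subunits with which BAF complexes move nucleosomes. Controls are called untreated; whether a vehicle was added to them is not given in the labels. The study's title names treatment with a BRG1/BRM inhibitor together with a FLT3 inhibitor; these libraries hold FHD-286 alone.

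MS4A proteins cross the membrane 4 times, with both ends in the cytoplasm, and many act as partners of other receptors rather than as receptors with a ligand of their own. The cluster is divided among blood lineages: MS4A1 encodes CD20 of B cells, MS4A2 the beta chain of the high-affinity IgE receptor of mast cells and basophils, and the genes described here belong to the granulocyte and monocyte branch. MS4A3 (HTm4) is a gene of granulocyte-monocyte progenitors whose protein binds the cyclin-dependent kinase phosphatase CDKN3. MS4A4A and MS4A6A are genes of monocytes and macrophages. MS4A4A is found beside the beta-glucan receptor Dectin-1, encoded by CLEC7A, in macrophages, and variants near both genes are known for their link to soluble TREM2. MS4A7 is a macrophage gene, and less is known of its neighbour MS4A14.

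The promoters of the 5 genes are shown because the genes were lower under FHD-286 in both lines and lie in 1 cluster. Each stretch runs from 250 bases before to 50 bases after the RefSeq gene start on GRCh38.p14, in the direction of transcription. Capitals mark matches, on either strand, to the core of the PU.1 site GAGGAA, the C/EBP site TTGCNNAA or the AP-1 site TGANTCA. MS4A6A has 4 starts in the RefSeq table, of which the outermost was used. The RefSeq starts of MS4A4A (60280666) and MS4A14 (60396459) lie well inside the gene bodies that GENCODE gives below. The GENCODE start of MS4A14 is beside the RefSeq start of MS4A7 (60378532), whose window is shown under MS4A7.
MS4A3, chr11:60056415-60056714, plus strand: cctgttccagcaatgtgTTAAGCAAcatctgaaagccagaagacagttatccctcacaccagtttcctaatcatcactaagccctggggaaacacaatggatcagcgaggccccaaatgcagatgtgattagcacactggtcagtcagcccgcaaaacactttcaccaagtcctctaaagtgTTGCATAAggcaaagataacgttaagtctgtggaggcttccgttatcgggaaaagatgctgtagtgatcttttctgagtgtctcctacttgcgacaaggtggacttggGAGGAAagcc
MS4A4A, chr11:60280416-60280715, plus strand: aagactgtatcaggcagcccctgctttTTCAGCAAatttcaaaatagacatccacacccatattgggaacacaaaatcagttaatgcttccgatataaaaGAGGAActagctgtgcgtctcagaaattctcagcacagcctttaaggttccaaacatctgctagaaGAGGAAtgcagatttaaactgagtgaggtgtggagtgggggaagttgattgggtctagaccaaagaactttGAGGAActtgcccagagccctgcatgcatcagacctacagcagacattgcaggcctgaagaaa
MS4A6A, chr11:60184617-60184916, minus strand: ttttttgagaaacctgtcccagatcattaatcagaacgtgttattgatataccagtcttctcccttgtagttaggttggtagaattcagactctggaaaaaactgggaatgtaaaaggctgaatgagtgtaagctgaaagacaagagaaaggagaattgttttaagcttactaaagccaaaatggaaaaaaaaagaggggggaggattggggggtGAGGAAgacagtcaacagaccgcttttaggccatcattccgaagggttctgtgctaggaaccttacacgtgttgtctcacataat
MS4A7, chr11:60378282-60378581, plus strand: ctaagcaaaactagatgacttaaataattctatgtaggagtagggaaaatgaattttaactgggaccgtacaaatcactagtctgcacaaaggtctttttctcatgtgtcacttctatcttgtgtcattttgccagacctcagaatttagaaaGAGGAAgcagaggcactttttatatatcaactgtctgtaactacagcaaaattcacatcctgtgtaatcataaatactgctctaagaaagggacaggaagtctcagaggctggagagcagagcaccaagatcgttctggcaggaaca
MS4A14, chr11:60396209-60396508, plus strand: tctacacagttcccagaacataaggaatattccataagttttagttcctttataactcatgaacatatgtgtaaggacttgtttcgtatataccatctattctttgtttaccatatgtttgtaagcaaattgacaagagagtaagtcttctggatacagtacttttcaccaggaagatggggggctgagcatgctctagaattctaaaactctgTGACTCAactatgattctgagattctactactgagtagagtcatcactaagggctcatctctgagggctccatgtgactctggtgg

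PU.1, encoded by SPI1, and the C/EBP factors are regulators of myeloid genes, which is why their letters were searched. The PU.1 core was found 3 times before MS4A4A, beginning 150, 84 and 13 bases before the start, where it makes the 3 blocks of capitals GAGGAA in that line. It was found once before MS4A7, 97 bases before the start, once before MS4A6A, 35 bases before the start, and once in MS4A3, 41 bases after the start. MS4A14 had no match to it in the window at its RefSeq start. Across all 35116 RefSeq promoters of this length 27.9% held at least 1 match, so a match in 4 of 5 promoters describes the letters only. The C/EBP letters were found in MS4A3, 233 and 68 bases before the start, and in MS4A4A, 223 bases before it, against 10.5% of all promoters. The AP-1 letters were found in MS4A14 alone among the 5, 36 bases before the start, against 7.71% of all promoters. The RUNX letters TGTGGT were in none of the 5 and in 13.1% of all promoters. No match marks a site that was measured to be bound.

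Total counts were 58397190 to 79172389 per library, and 3 counts in a library, the limit that a count of 0 allows, corresponded to 0.0366 to 0.0548 CPM (counts scaled to library size with TMM factors). These limits and the intervals on counts below cover counting error only. Whether replicates were separate cultures is not stated in the labels, so p-values measure only how these samples vary, which may be a technical spread. One library, labelled OCI-AML3-FLT3-ITD control 2, stood apart from its group. FLT3 was at 53.4 CPM in it, against 178 and 203 CPM in the other FLT3-ITD controls and 41.1 to 43.3 CPM in OCI-AML3 controls. Its log CPM correlated at 0.919 to 0.924 with the other FLT3-ITD controls and at 0.968 to 0.977 with the OCI-AML3 controls, and 8.85% of its counts were mitochondrial, against 4.48% to 7.54% in the other 10 libraries. Its part in the results was not tested; it was kept in its group, and values are given with and without it. SMARCA4, an FHD-286 target, was lower with FHD-286 in OCI-AML3 by 0.31 on the log2 scale (adjusted p = 0.0142) and did not pass in OCI-AML3-FLT3-ITD (log2 fold change -0.13, adjusted p = 0.344), where it did pass without control 2 (-0.20, adjusted p = 0.0332). The other target gene, SMARCA2, was higher with FHD-286 in OCI-AML3-FLT3-ITD (0.30, adjusted p = 0.0204), also without control 2 (0.23, adjusted p = 0.0104). In OCI-AML3 it did not pass with all 11 libraries (0.15, adjusted p = 0.145), but was called higher there without control 2. Adjusted p-values are from edgeR's quasi-likelihood test, adjusted over the whole table, and a gene is called below 0.05.

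The libraries carried general myeloid RNA, and markers of T cells, B cells, mast cells and stroma were low. The summed level of the 5 myeloid markers CD33, ANPEP, LYZ, MPO and SPI1 was 100 to 102 CPM in treated and 416 to 469 CPM in untreated OCI-AML3-FLT3-ITD, and 154 to 166 CPM in treated and 569 to 627 CPM in untreated OCI-AML3. Within that sum ANPEP rose with FHD-286, at log2 fold changes of 1.12 (adjusted p = 0.00506) in OCI-AML3-FLT3-ITD and 1.75 (adjusted p = 0.000119) in OCI-AML3. The other 4 were called lower in both lines, where 14.9% and 21.5% of all genes were. The 4 T cell markers summed to at most 0.0359 CPM, the 6 B cell markers to at most 1.7 CPM, the 9 mast cell and basophil markers to 0.179 to 1.4 CPM and the 6 stromal and epithelial markers to at most 0.275 CPM. CD2 and CD3E, CD22, CPA3 and CLC, and CDH1 had no count in any library. In these bulk libraries fewer cells of a type and less RNA per cell cannot be told apart.

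MS4A3 (ENSG00000149516.13; GRCh38 chr11, 60056587 to 60071128, plus strand), the progenitor gene of the group, was the most abundant of the 5 per length in every group. It had 36.9 and 33.9 CPM in treated OCI-AML3-FLT3-ITD, against 202, 229 and 181 CPM in untreated OCI-AML3-FLT3-ITD. It had 59.6, 62.9 and 59.8 CPM in treated OCI-AML3, against 215, 210 and 206 CPM in untreated OCI-AML3. In each line every treated library lay below every control, and the treated OCI-AML3-FLT3-ITD libraries were the lowest of all 11. The log2 fold change with FHD-286 was -2.53 (SE 0.103) in OCI-AML3-FLT3-ITD and -1.79 (SE 0.0855) in OCI-AML3.

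MS4A6A (ENSG00000110077.14; chr11, 60172014 to 60184666, minus strand) had the widest spread between groups of any of the 5 genes with counts in all 4 groups. It had 2.69 and 2.33 CPM in treated OCI-AML3-FLT3-ITD, against 66.9, 2.96 and 59.2 CPM in the untreated replicates 1, 2 and 3. It had 0.0402, 0.013 and 0 CPM in treated OCI-AML3, which is 3, 1 and 0 counts, against 6.85, 6.77 and 6.52 CPM in untreated OCI-AML3. The FLT3-ITD control 2 library, at 2.96 CPM, was nearer to the treated libraries of its line than to its own group. FHD-286 libraries of OCI-AML3 held 4 counts in all, against 1171 in the controls, a level 384-fold lower (150 to 1410, 95% exact binomial interval). In OCI-AML3-FLT3-ITD the log2 fold change was -4.10 (SE 0.989), and -4.65 (SE 0.12) without control 2.

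MS4A4A (ENSG00000110079.16; chr11, 60185702 to 60317944, plus strand) was the least abundant of the 5 and was counted almost only in a pair of libraries. It had 0.151 and 0.0488 CPM in treated OCI-AML3-FLT3-ITD, which is 11 and 4 counts, against 5.31, 0.0289 and 5.47 CPM, which is 375, 2 and 438 counts, in untreated OCI-AML3-FLT3-ITD. It had no count in the 3 treated OCI-AML3 libraries, against 0.11, 0.172 and 0.108 CPM, which is 6, 11 and 6 counts, in untreated OCI-AML3. The untreated FLT3-ITD replicates 1 and 3 were thus far above all other libraries, and control 2 lay below both treated libraries of its line. In OCI-AML3 the level was at least 10.1-fold lower with FHD-286 (0 against 23 counts, with a floor of 3 counts over the group; the exact 95% lower limit of the ratio is 7.54). In OCI-AML3-FLT3-ITD it was 38.2-fold lower (15 against 815 counts, interval 23 to 68.6), and 55.7-fold lower (interval 33.6 to 99.9) without control 2. Only 4 of 11 libraries were above 0.139 CPM, the level that the filter on low counts asked for, 2 of them FLT3-ITD controls.

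MS4A7 (ENSG00000166927.12; chr11, 60378482 to 60395951, plus strand) was the second most abundant per length in every group. It had 36.6 and 27.6 CPM in treated OCI-AML3-FLT3-ITD, against 189, 106 and 181 CPM in untreated OCI-AML3-FLT3-ITD. It had 33.5, 40.3 and 33.1 CPM in treated OCI-AML3, against 75.7, 72.4 and 72.3 CPM in untreated OCI-AML3. Treated and control libraries did not overlap in either line, whereas the treated libraries of the lines overlapped each other. The log2 fold change was -2.30 (SE 0.235) in OCI-AML3-FLT3-ITD, -2.53 (SE 0.109) without control 2, and -1.04 (SE 0.194) in OCI-AML3.

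MS4A14 (ENSG00000166928.10; chr11, 60378530 to 60417756, plus strand), whose annotated body overlaps that of MS4A7, had much lower levels. It had 1.87 and 1.43 CPM in treated OCI-AML3-FLT3-ITD, against 10.3, 7.54 and 10.7 CPM in untreated OCI-AML3-FLT3-ITD. It had 1.3, 1.56 and 1.27 CPM in treated OCI-AML3, against 4.53, 5.02 and 4.65 CPM in untreated OCI-AML3. As for MS4A7, treated and control libraries did not overlap in either line and the treated libraries of the lines did. The log2 fold change was -2.53 (SE 0.21) in OCI-AML3-FLT3-ITD, -2.67 (SE 0.142) without control 2, and -1.78 (SE 0.177) in OCI-AML3.

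**Figure D1:**
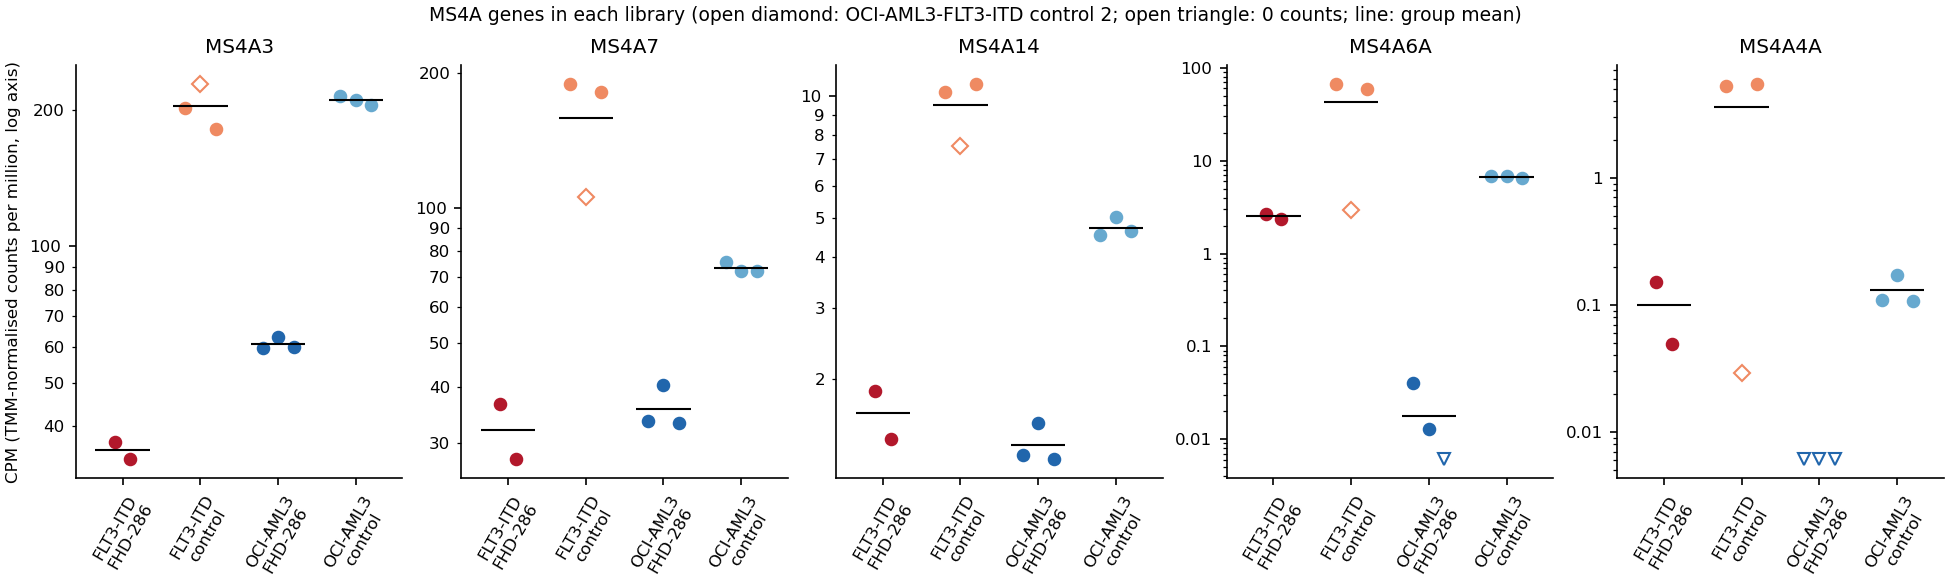
Level of each of the 5 MS4A genes (TMM-scaled CPM, log axis) in every library of the 4 groups; lines are group means, an open diamond is OCI-AML3-FLT3-ITD control 2 and an open triangle a library with 0 counts, drawn at an arbitrary height. MS4A6A lay at 66.9 and 59.2 CPM in FLT3-ITD controls 1 and 3 and at 2.96 CPM in control 2, while MS4A4A had no count in any treated OCI-AML3 library.

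In the contrasts that chose the genes, 5 of 5 were called lower with FHD-286 in OCI-AML3-FLT3-ITD, where 14.9% of all 18908 tested genes were, and 4 of 5 in OCI-AML3, where 21.5% were. The exception was MS4A4A in OCI-AML3; without FLT3-ITD control 2 all 5 were called lower in both lines, against 24.2% and 29.8% of 18662 tested genes. Nothing is read from these counts, since lower levels under FHD-286 chose the genes.

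Ordered by CPM per kilobase of exon, the scale on which genes can be compared, the 5 did not keep the same order in all groups. In treated OCI-AML3-FLT3-ITD the mean levels were 16.9 for MS4A3, 7.38 for MS4A7, 0.434 for MS4A6A, 0.411 for MS4A14 and 0.0339 CPM per kb for MS4A4A, and the ranges of MS4A6A and MS4A14 overlapped. In untreated OCI-AML3-FLT3-ITD they were 97.4, 36.4, 7.43, 2.37 and 1.22 CPM per kb in the same order of genes. There control 2, at 0.511 CPM per kb of MS4A6A, brought the range of MS4A6A down across those of MS4A14 and MS4A4A. In controls 1, 2 and 3 MS4A4A stood at 1.8, 0.00979 and 1.86 CPM per kb. In the same libraries MS4A14 was higher, at 2.56, 1.88 and 2.67 CPM per kb.

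In OCI-AML3 the means kept the same order with treatment, but MS4A6A moved away from MS4A14. In treated OCI-AML3 the mean levels were 29 for MS4A3, 8.2 for MS4A7, 0.343 for MS4A14, 0.00306 for MS4A6A and 0 CPM per kb for MS4A4A. In untreated OCI-AML3 they were 100.3 for MS4A3, 16.9 for MS4A7, 1.18 for MS4A14, 1.16 for MS4A6A and 0.044 CPM per kb for MS4A4A, with the ranges of MS4A14 and MS4A6A overlapping. MS4A6A thus stood level with MS4A14 in OCI-AML3 controls and far below it in the treated libraries. MS4A3 made up 47.2% and 51.9% of the counts of the 5 genes in treated OCI-AML3-FLT3-ITD, against 42.7%, 66.2% and 41.5% in its controls 1, 2 and 3, and 60% to 63.5% in treated against 71.1% to 71.3% in untreated OCI-AML3. The neighbours MS4A7 and MS4A14 did not change in a fixed ratio either, with 19.3 and 19.6 MS4A7 counts per MS4A14 count in treated and 14.1 to 18.4 in untreated OCI-AML3-FLT3-ITD, and 25.8 to 26.1 in treated and 14.4 to 16.7 in untreated OCI-AML3.

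Without treatment, 4 of the 5 genes were higher in OCI-AML3-FLT3-ITD than in OCI-AML3, and the progenitor gene MS4A3 was the exception. The largest difference was in MS4A4A, with a log2 fold change of 4.76 (SE 1.32; adjusted p = 0.0285), followed by MS4A6A at 2.68 (SE 0.776; adjusted p = 0.0272). MS4A7 was 2.16-fold higher (log2 fold change 1.11, SE 0.194; adjusted p = 0.00308), and MS4A14 2.01-fold higher (1.01, SE 0.17; adjusted p = 0.00265). Every untreated OCI-AML3-FLT3-ITD library was above every untreated OCI-AML3 library for MS4A7 and MS4A14. This was not so for MS4A6A and MS4A4A, where the FLT3-ITD control 2 library was below all 3 OCI-AML3 controls, at 0.441 and 0.222 times their mean. For MS4A3 the log2 fold change was -0.04 (SE 0.0828; interval -0.226 to 0.141; adjusted p = 0.731), and its sign turned with the scaling.

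Among all tested genes 14.5% were called higher in this comparison, against 4 of the 5. The control libraries are also those of the contrasts that chose the genes. The calls of MS4A4A and MS4A6A were lost when any 1 of the OCI-AML3 controls 1, 2 and 3 or of the FLT3-ITD controls 1 and 3 was left out, at adjusted p-values of 0.0529 to 0.106 and 0.0661 to 0.0945. Without FLT3-ITD control 2 all 4 differences were larger, at log2 fold changes of 5.34 (adjusted p = 6.38e-12) for MS4A4A, 3.23 (8.35e-17) for MS4A6A, 1.33 (1.45e-10) for MS4A7 and 1.15 (4.96e-08) for MS4A14, with 24.1% of all genes called higher. MS4A3 then stood at -0.13 (adjusted p = 0.107).

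Under FHD-286 the lines differed in MS4A6A, as without treatment, and in MS4A3. MS4A6A was higher in treated OCI-AML3-FLT3-ITD than in treated OCI-AML3, with 387 against 4 counts, a ratio of 143 (55.4 to 528, exact interval) and a log2 fold change of 7.03 (SE 1.47; adjusted p = 0.00662). MS4A3 was lower in treated OCI-AML3-FLT3-ITD, at a log2 fold change of -0.78 (SE 0.0955; adjusted p = 0.000401), which is 1.72-fold lower. MS4A7 and MS4A14, which were 2.01- to 2.16-fold higher in the FLT3-ITD line without treatment, did not pass between the treated groups, at -0.15 (interval -0.632 to 0.327; adjusted p = 0.656) and 0.26 (interval -0.175 to 0.692; adjusted p = 0.371). MS4A4A had 15 against 0 counts, at least 7.39-fold higher with the floor of 3 counts over the group (exact 95% lower limit 5.3), and did not pass (adjusted p = 0.265). The 2 of 5 genes called stand beside 26.0% of all genes; without FLT3-ITD control 2, which enters this comparison only through the shared spread, MS4A4A was called as well (adjusted p = 0.000311), 3 of 5 beside 46.9% of all genes.

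The difference between the FHD-286 effects of the lines is made from the contrasts that chose the genes, so its p-values are not independent of that choice. The direction of each effect is given, and only the difference in size was tested. It was -0.74 on the log2 scale for MS4A3 (SE 0.126; adjusted p = 0.0127) and -1.26 for MS4A7 (SE 0.292; adjusted p = 0.0442), both with the stronger decrease in OCI-AML3-FLT3-ITD. MS4A14 had a difference of the same sign that did not pass (-0.75, SE 0.261; adjusted p = 0.16). MS4A6A had one of the opposite sign, 4.35 (SE 1.89; adjusted p = 0.258), and MS4A4A stood at 1.06 (SE 2.49; adjusted p = 0.86). The 2 called among 5 stand beside 3.36% of all genes. The call of MS4A3 was lost without either treated FLT3-ITD library (adjusted p = 0.0587 and 0.0754). That of MS4A7 was lost without any 1 of the 3 OCI-AML3 controls, the 3 treated OCI-AML3 libraries, FLT3-ITD control 3 or either treated FLT3-ITD library (adjusted p = 0.0703 to 0.193).

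Without FLT3-ITD control 2, 4 of the 5 differences were called, beside 17.0% of all genes. They were -0.65 for MS4A3 (adjusted p = 5.03e-05), -1.48 for MS4A7 (1.69e-07), -0.89 for MS4A14 (0.00226) and 3.79 for MS4A6A (3.34e-06), while MS4A4A stood at 0.47 (0.564). The genes thus divided into 2 directions, MS4A3, MS4A7 and MS4A14 with the stronger decrease in OCI-AML3-FLT3-ITD and MS4A6A with the stronger decrease in OCI-AML3.

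**Figure D2:**
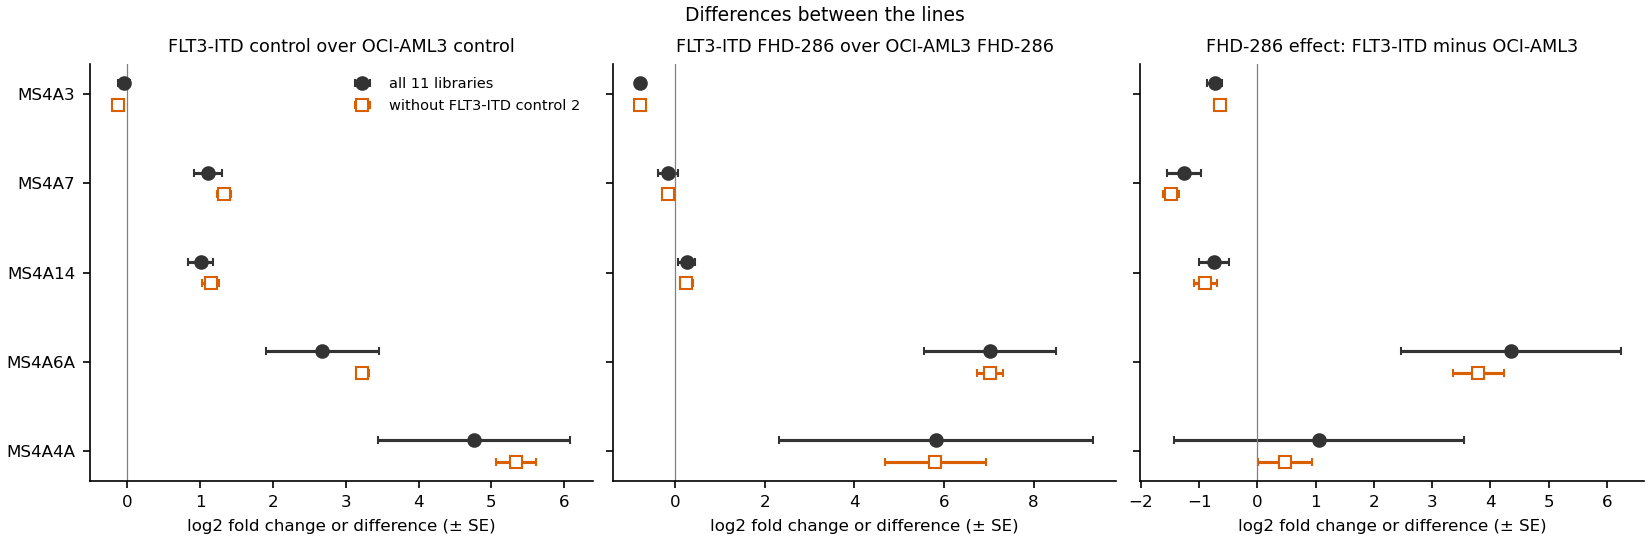
Log2 difference between the lines (± SE) for each gene, in untreated libraries, in treated libraries and as the difference of the FHD-286 effects, with all 11 libraries (filled circles) and without OCI-AML3-FLT3-ITD control 2 (open squares). MS4A7 and MS4A14 lie near 1 without treatment and near 0 under FHD-286, and the errors of MS4A6A and MS4A4A shrink without control 2.

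The rest of the cluster was almost silent. It spans 745 kb with 16 MS4A genes in the annotation, of which 6 passed the filter, the 5 described and MS4A2. Of the other 10, MS4A5, MS4A8, MS4A13, MS4A15 and MS4A18 had no count in any library, MS4A10 and MS4A12 had 1 each, and MS4A4E had 5, MS4A1 6 and MS4A6E 11 over all 11 libraries. Of the related chromosome 7 genes, TMEM176A had none and TMEM176B 1. MS4A2 was at 0.0526 ± 0.0227 CPM (SD, n = 2) in treated and 0.986 ± 0.215 CPM (n = 3) in untreated OCI-AML3-FLT3-ITD, and at 0.161 ± 0.0946 CPM in treated and 0.787 ± 0.179 CPM in untreated OCI-AML3 (n = 3 each). It fell with FHD-286, with log2 fold changes of -4.20 in OCI-AML3-FLT3-ITD (SE 0.576; adjusted p = 0.000388) and -2.28 in OCI-AML3 (SE 0.425; adjusted p = 0.00156). It did not pass between the untreated lines (0.32, adjusted p = 0.547). FCER1A, the alpha chain of the same receptor, had 11 counts in all.

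Genes on either side of the cluster were tested for comparison, since they share the chromosomal region and were not chosen by their values. Within 500 kb of the outermost MS4A genes lay 51 genes, of which 20 were tested. In OCI-AML3-FLT3-ITD 8 fell with FHD-286 and 0 rose, beside 14.9% and 15.6% of all genes, with a median log2 fold change of -0.31. In OCI-AML3 12 fell and 1 rose, beside 21.5% and 19.8% of all genes, with a median of -0.69, against medians of -0.02 and 0.01 over all tested genes in the 2 lines. The nearest tested genes on the MS4A3 side were OOSP1 and TCN1. TCN1, which encodes the vitamin B12 carrier haptocorrin of granules, fell at a log2 fold change of -3.16 (SE 0.198; adjusted p = 2.72e-06) in OCI-AML3-FLT3-ITD and -2.14 (SE 0.159; adjusted p = 3.66e-06) in OCI-AML3. OOSP1 fell at a log2 fold change of -2.75 (adjusted p = 0.0195) and -3.40 (adjusted p = 0.00744), on 181 counts in all. On the other side SLC15A3, a lysosomal peptide transporter gene, fell at a log2 fold change of -1.87 (adjusted p = 0.000174) and -1.86 (adjusted p = 3.33e-05).

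The other neighbours named by the rule were the pseudogene FABP5P7, which may share reads with its parent gene, and the noncoding AP000442.1, with 127 counts in all libraries. FABP5P7 fell at a log2 fold change of -1.17 (adjusted p = 0.0114) in OCI-AML3-FLT3-ITD and -1.81 (adjusted p = 0.000256) in OCI-AML3. AP000442.1 stood at 0.54 (adjusted p = 0.606) in OCI-AML3-FLT3-ITD and rose by 2.28 (adjusted p = 0.0198) in OCI-AML3. Between the untreated lines 1 of the 20 neighbours was higher and 4 were lower, beside 14.5% and 13.5% of all genes. Without FLT3-ITD control 2 that count was 6 higher and 6 lower, beside 4490 higher and 4733 lower of all 18662 tested genes.

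**Figure D3:**
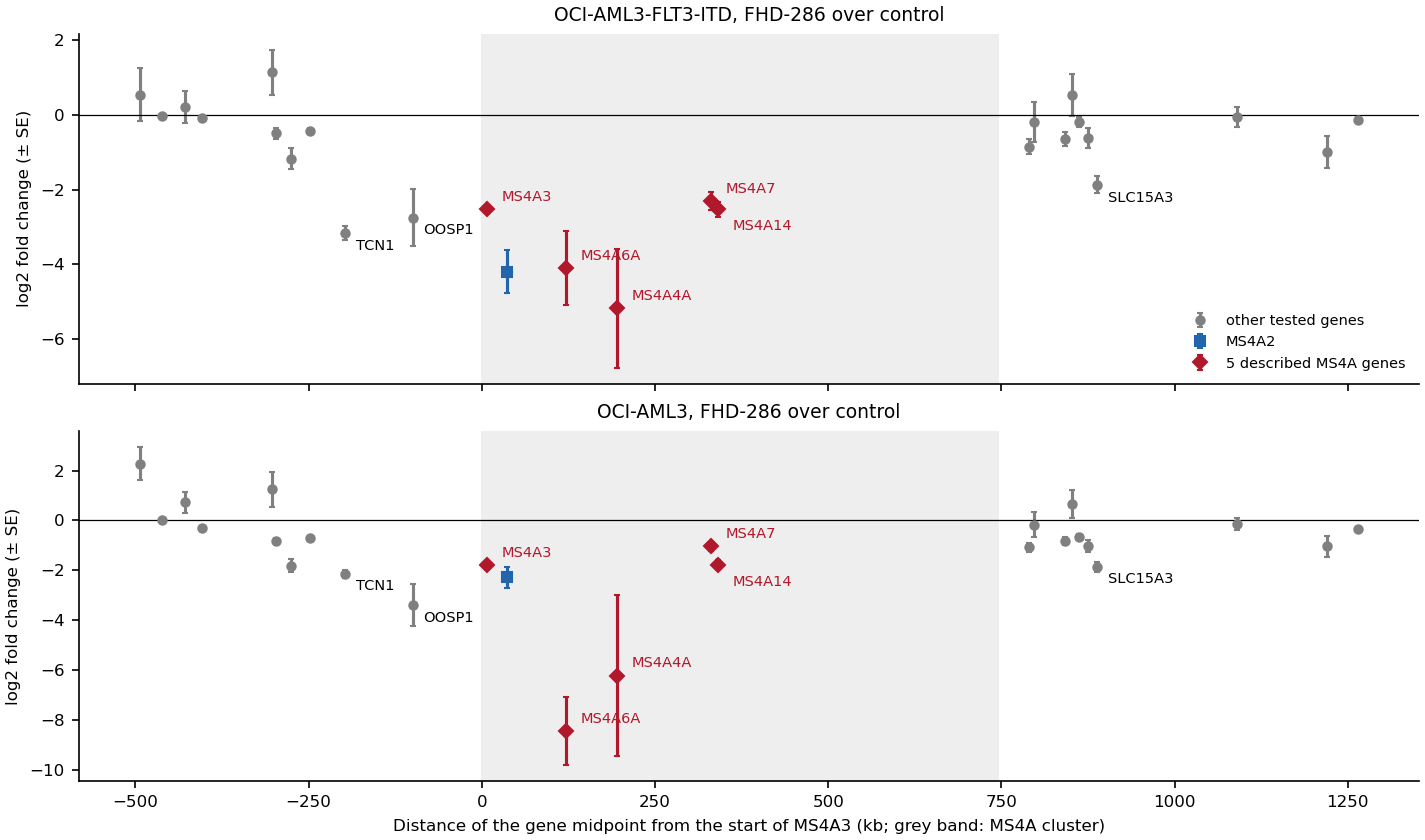
Log2 fold change with FHD-286 (± SE) of every tested gene in and within 500 kb of the MS4A cluster, against the distance of its midpoint from the start of MS4A3 in kb, for OCI-AML3-FLT3-ITD (top) and OCI-AML3 (bottom). The 5 MS4A genes (red) and MS4A2 (blue) lie between -1.04 and -8.45, and TCN1, OOSP1 and SLC15A3 outside the cluster also lie well below 0.

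Genes linked to MS4A genes or proteins, directly or through a partner, were mostly lower with FHD-286. Of 6 such genes 5 were tested, and in OCI-AML3-FLT3-ITD 3 fell and 1 rose, with a median log2 fold change of -1.24, while in OCI-AML3 all 5 fell, with a median of -1.80. Of all genes 14.9% fell and 15.6% rose in OCI-AML3-FLT3-ITD, and 21.5% fell and 19.8% rose in OCI-AML3. CLEC7A, which encodes Dectin-1, fell at a log2 fold change of -5.78 (adjusted p = 0.00162) in OCI-AML3-FLT3-ITD and -4.68 (adjusted p = 0.000767) in OCI-AML3. These values rest on 171 counts in all, with 1 in treated OCI-AML3-FLT3-ITD and 3 in treated OCI-AML3. TREM2, a lipid receptor of macrophages, fell at a log2 fold change of -3.36 (adjusted p = 0.00568) and -3.68 (adjusted p = 0.00158), and its signalling adaptor TYROBP at -1.24 (adjusted p = 0.0286) and -1.80 (adjusted p = 0.00181). The MS4A3 partner CDKN3, named in addition, stood at 0.38 (adjusted p = 0.0514) in OCI-AML3-FLT3-ITD and fell at a log2 fold change of -0.55 (adjusted p = 0.0035) in OCI-AML3. Its substrate CDK2 rose by 0.42 (adjusted p = 0.00783) in OCI-AML3-FLT3-ITD and fell at a log2 fold change of -0.37 (adjusted p = 0.00677) in OCI-AML3. The receptor tyrosine kinase gene KIT had 1 count in all. CLEC7A, TREM2 and TYROBP are also on the list of macrophage genes below, so they count in both lists.

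Macrophage genes, the class of MS4A4A, MS4A6A and MS4A7, were compared between the lines and with FHD-286. Of 28 listed, 18 were tested, and 7 were higher and 0 lower in untreated OCI-AML3-FLT3-ITD than in untreated OCI-AML3. Of all genes 14.5% were called higher. The 18 genes had a median of 0.97, against 0.01 over all genes. Without FLT3-ITD control 2 it was 13 higher and 0 lower of 17, beside 24.1% of all genes called higher. With all 11 libraries TREM2 was among those higher, at 2.59 (adjusted p = 0.0101). With FHD-286, 9 fell and 0 rose in OCI-AML3-FLT3-ITD (median -1.84), and 10 fell and 1 rose in OCI-AML3 (median -1.74), beside 14.9% and 21.5% of all genes that fell. CSF1R, the macrophage growth factor receptor gene, fell at a log2 fold change of -7.17 (adjusted p = 6.39e-06) in OCI-AML3-FLT3-ITD and -6.57 (adjusted p = 1.73e-06) in OCI-AML3. The Fc receptor gene FCGR1A fell at a log2 fold change of -3.26 (adjusted p = 0.000224) and -2.04 (adjusted p = 0.000692), and the protease gene CTSS at -1.36 (adjusted p = 1.41e-05) and -1.81 (adjusted p = 5.83e-07). CTSB, another lysosomal protease gene, was the 1 that rose, by 0.79 in OCI-AML3 (adjusted p = 0.00316), and stood at 0.29 in OCI-AML3-FLT3-ITD (adjusted p = 0.263).

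Granulocyte-monocyte progenitor genes, the class of MS4A3, also fell in most cases. Of 15 tested, 12 fell and 1 rose in OCI-AML3-FLT3-ITD (median -1.50), and 12 fell and 2 rose in OCI-AML3 (median -0.81), beside 14.9% and 21.5% of all genes that fell and 15.6% and 19.8% that rose. The granule protease gene PRTN3 fell at a log2 fold change of -3.15 (adjusted p = 1.77e-07) in OCI-AML3-FLT3-ITD and -3.67 (adjusted p = 8.39e-09) in OCI-AML3, and the growth factor gene CLEC11A at -2.04 (adjusted p = 1.54e-06) and -2.23 (adjusted p = 1.85e-07). The granulocyte colony-stimulating factor receptor gene CSF3R fell at a log2 fold change of -1.70 (adjusted p = 8.14e-07) and -1.11 (adjusted p = 1.73e-06). RNASE2, a granule ribonuclease gene, rose by 0.40 (adjusted p = 0.0086) and 0.86 (adjusted p = 2.53e-05).

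Of 14 transcription factor genes of the myeloid lineage, 8 fell and 0 rose in OCI-AML3-FLT3-ITD (median -1.18), and 8 fell and 5 rose in OCI-AML3 (median -0.42), where 14.9% and 21.5% of all genes fell and 15.6% and 19.8% rose. SPI1 had 23.1 and 24.1 CPM in treated OCI-AML3-FLT3-ITD, against 316, 284 and 271 CPM in its controls, and 42.2, 49.1 and 42.2 CPM in treated OCI-AML3, against 310, 303 and 345 CPM in its controls. It fell at a log2 fold change of -3.62 (adjusted p = 8.04e-08) in OCI-AML3-FLT3-ITD and -2.84 (adjusted p = 2.47e-08) in OCI-AML3, with no overlap of treated and control libraries. The ETS factor gene FLI1 fell at a log2 fold change of -1.86 (adjusted p = 5.65e-07) and -1.36 (adjusted p = 5.83e-07), and the progenitor factor gene LYL1 at -1.75 (adjusted p = 7.81e-06) and -2.0 (adjusted p = 7.1e-07). KLF4, a monocyte factor, rose by 0.92 in OCI-AML3 (adjusted p = 1.49e-05) and stood at -0.26 in OCI-AML3-FLT3-ITD (adjusted p = 0.0578). The C/EBP genes CEBPA, CEBPB, CEBPD and CEBPE did not all move one way. CEBPA fell at a log2 fold change of -1.75 (adjusted p = 8.44e-05) in OCI-AML3-FLT3-ITD and -0.50 (adjusted p = 0.0279) in OCI-AML3. CEBPB stood at -0.61 (adjusted p = 0.0568) in OCI-AML3-FLT3-ITD, and -0.82 (adjusted p = 8.51e-06) without control 2, and rose by 1.85 (adjusted p = 4.24e-05) in OCI-AML3. CEBPD stood at -0.14 (adjusted p = 0.641) in OCI-AML3-FLT3-ITD, and 0.12 (adjusted p = 0.417) without control 2, and rose by 1.04 (adjusted p = 0.00116) in OCI-AML3. CEBPE, on 42 counts in all and 0 in treated libraries, stood at -5.73 (adjusted p = 0.0681) in OCI-AML3-FLT3-ITD. It fell at a log2 fold change of -6.19 (adjusted p = 0.0204) in OCI-AML3.

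Likeness to other genes was measured as the root mean square difference of log2 CPM over the 11 libraries, each gene centred on its own mean, among 11554 genes; all of these values share the same libraries and groups. The closest match was ALOX5, the 5-lipoxygenase gene of leukotriene synthesis, to MS4A7, at 0.092, where MS4A7 itself varied about its mean by 0.937. ALOX5 had 1.14 and 0.94 CPM in treated OCI-AML3-FLT3-ITD, against 5.38, 3.39 and 5.54 CPM in its controls, and 1, 1.12 and 0.972 CPM in treated OCI-AML3, against 2.56, 2.31 and 2.37 CPM in its controls. It followed MS4A7 through FLT3-ITD control 2, which lay between the other controls of that line and those of OCI-AML3. SERPINB2 (0.188) and CSF3R (0.287) came next. For MS4A14 the closest were ACVRL1 (0.255), ALOX5 (0.269) and CD226 (0.282).

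MS4A3 was most like the carnitine-related transporter gene SLC22A4 (0.141), DENND1C (0.147) and C1orf162 (0.152), with its own variation at 1.07. The matches of MS4A4A and MS4A6A were looser by this measure, and these genes also varied most among the 5. MS4A4A, which varied by 2.59, was closest to HSD11B1 (0.761), IL7R (0.799) and IGLV3-9 (0.957). MS4A6A, which varied by 3.72, was closest to SLC12A3 (1.33), COL8A2 (1.49) and TREM2 (1.61). TREM2 had 2.07 and 1.71 CPM in treated OCI-AML3-FLT3-ITD, against 30.4, 3.2 and 24.5 CPM in its controls, and 0.281, 0.221 and 0.246 CPM in treated OCI-AML3, against 3.18, 3.3 and 3.14 CPM in its controls. Like MS4A6A it was high in FLT3-ITD controls 1 and 3 and far lower in control 2, where TREM2 lay among the OCI-AML3 controls and MS4A6A below them.

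**Figure D4:**
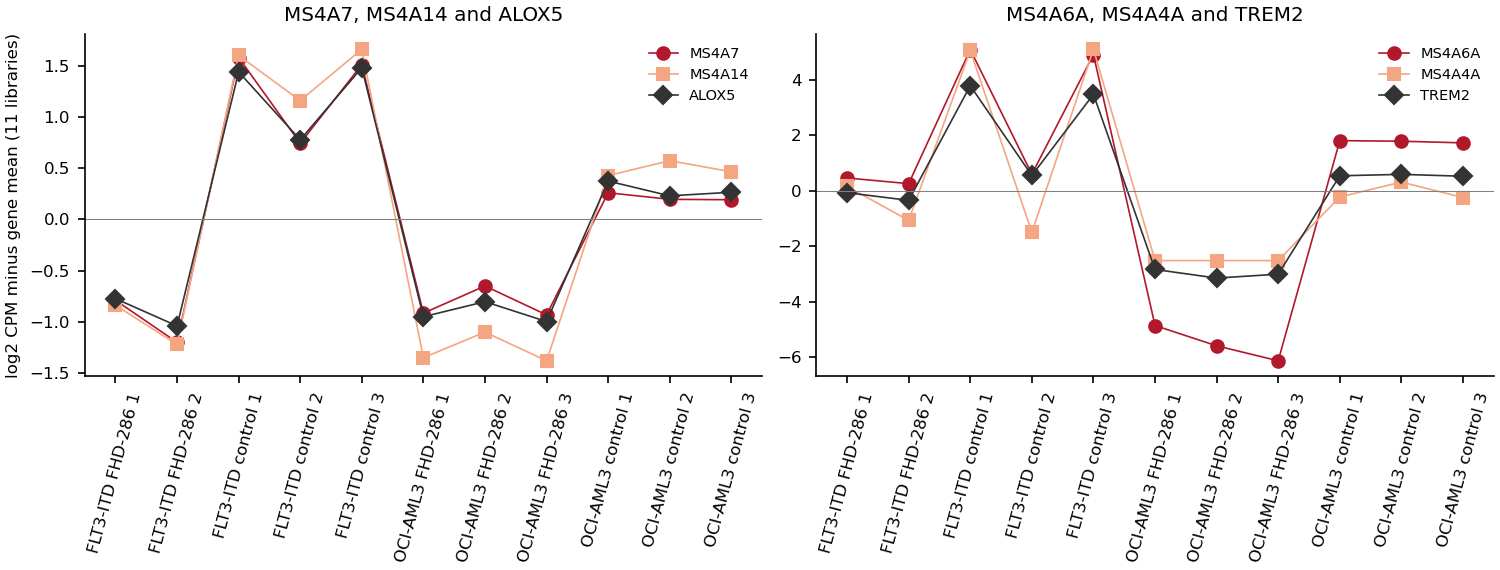
Log2 CPM minus the gene's mean over all 11 libraries, for MS4A7, MS4A14 and ALOX5 (left) and for MS4A6A, MS4A4A and TREM2 (right), in each library by group. ALOX5 runs along MS4A7 within a root mean square of 0.092, and the 3 genes on the right peak in FLT3-ITD controls 1 and 3 and drop in control 2.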

How the data were processed

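Libraries were made from total RNA after DNase treatment, per the labels' protocols. The deposited table holds unnormalised whole-number counts for 58037 Ensembl identifiers, made by the authors. The submitters' processing notes name STAR and hg38. Which program counted the reads, with which annotation and strand setting, is not given in the sources used here, and reads shared by overlapping or antisense genes cannot be assigned. Symbols and coordinates are from GENCODE 29 (GRCh38), which held 57433 of them. Exons of other genes overlapped 3.1% of MS4A7 (by MS4A14) and 4.24% of MS4A14 (by MS4A7 and MS4A6E). Shares of 50-base words found in another gene were 0.684% for MS4A4A, 1.67% for MS4A6A, 2.51% for MS4A7, 2.05% for MS4A14 and 0 for MS4A3.

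Genes were filtered with filterByExpr (minimum count 10, minimum total 15), which left 18908, including the 5 described. edgeR 4.0.16 (R 4.3.3) was used for TMM scaling and for its quasi-likelihood test, in which each group had its own mean and all 11 libraries shared 1 estimate of the spread (7 residual degrees of freedom). Tests were two-sided with Benjamini-Hochberg adjustment over all genes tested. SE is approximate and was derived from the F statistic and the log2 fold change. The common biological coefficient of variation was 0.193, and 0.0652 without FLT3-ITD control 2. Promoters are RefSeq's on GRCh38.p14. The 5 genes and all lists were chosen with earlier results of these data known. In each list up to 3 genes with the smallest p and 1 of the minority direction were named, beside the 4 largest called changes among neighbours and the 3 most alike genes (average log2 CPM of at least 1). CDKN3, CEBPA, CEBPB, CEBPD and CEBPE were named outside this rule after their values were seen. One marker list is not reported here. Alternatives were other scalings (DESeq2 size factors, library totals), other filters (none, or 3 libraries with a CPM of 1 or more), DESeq2 1.42.0 with its Wald test, only the groups compared, a replicate block and leaving out each library. Values of lists and neighbours without FLT3-ITD control 2 were added after seeing the data.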

Additional observations from a re-analysis of the deposited data

Results flagged for a closer look

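The FHD-286 effect differed between the lines, by the test of the difference itself, for MS4A3 (-0.737 on the log2 scale, OCI-AML3-FLT3-ITD minus OCI-AML3; adjusted p = 0.0127, edgeR) and for MS4A7 (-1.26; adjusted p = 0.0442). Both genes were lower with FHD-286 in every library of both lines, so the lines differed in the size of the effect and not in its direction. The difference is made from the contrasts that chose the genes, so these p-values are not independent of that choice. Neither call held with every single library left out, as given above. No outlier test was run on single libraries, since the groups held 2 or 3; FLT3-ITD control 2 was set apart by the values given for it above.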

How the results depend on the processing

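Over 25 log2 fold changes of the 5 genes and 18 settings, 438 values were computed. No called value changed direction, and 393 kept their side of the threshold, while 38 lost and 7 gained a call. The calls of MS4A7 and MS4A14 between the untreated lines, and of MS4A3 and MS4A6A between the treated lines, held in every alternative that was run. The count of the 5 genes called between the untreated lines was 4, and 2 with only the groups compared and 2 to 4 with 1 library left out. For the difference of the FHD-286 effects it was 2, and 0 to 4 with 1 library left out. In the contrast of FHD-286 in OCI-AML3-FLT3-ITD it was 5, and 3 with only the groups compared. Nothing is read from that count, since this contrast was among those that chose the genes. Over all genes, the counts called were 5289 between untreated lines (1736 with only the groups compared, 2914 to 9223 with 1 library left out), 4916 between treated lines (9581, 1909 to 8756), 5767 with FHD-286 in OCI-AML3-FLT3-ITD (1618, 2908 to 9140) and 635 for the difference of effects (105 to 3177; 1467 by the DESeq2 Wald test). The cause was not tested. Where 1 treated FLT3-ITD library was left, its spread was taken from the other groups.

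Replicate numbers did not pair the libraries (3 of 15 same-numbered pairs correlated over 0.1, range -0.175 to 0.226). With a replicate block, 2 of the 5 genes were called between the untreated lines. MS4A4A (3.96, adjusted p = 0.0793) and MS4A6A (2.24, adjusted p = 0.083) lost their calls there. For the difference of effects 1 of the 5 was called, and MS4A7 (-1.25, adjusted p = 0.0749) lost its call. In all, 349 genes were called for that difference. Scaling to library totals moved the median of all genes to 0.11 between untreated lines, to 0.17 with FHD-286 in OCI-AML3 and to 0.09 in OCI-AML3-FLT3-ITD, and the share of calls that were higher to 67.7%, 63% and 64.1%, against 51.8%, 47.9% and 51.3%. The log2 fold change of MS4A3 between untreated lines ran from -0.04 to 0.05 over the scalings. MS4A4A gave no value under the stricter filter and in fits of only the treated or only the OCI-AML3 groups, and the difference of effects has no fit of fewer groups. MS4A4A had 0 counts in the 3 treated OCI-AML3 libraries, where levels under 0.0389 to 0.0402 CPM cannot be told from 0.

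Without FLT3-ITD control 2, genes with FHD-286 in OCI-AML3-FLT3-ITD divided into 3 lower and 2 higher of 5 genes linked to MS4A (CDKN3 joined at 0.25, adjusted p = 0.0198). The counts were 12 lower and 1 higher of 17 macrophage genes and 12 lower and 2 higher of 14 progenitor genes. They were 10 lower and 1 higher of 13 transcription factor genes, and 11 lower and 0 higher of 20 neighbours. Of all 18662 genes tested in that fit, 4521 (24.2%) were called lower and 4619 higher, against 14.9% and 15.6% with all 11 libraries.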
